A study of Oryza sativa with 6 samples.

Results

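Roots of the rice line 6-4 were compared with roots of the cultivar Nipponbare, both grown in soil without phosphorus (P), on 3 oligonucleotide arrays of 2 colours out of the 6 in the series. The arrays were chosen by their labels, as the 3 replicates of the P-deficient condition. Line 6-4 is described as a near-isogenic line with segments of the indica cultivar Kasalath, and the labels do not say which segments it carries. The P-deficient plants of both lines stood in 12 L pots of an Andosol, a volcanic soil, without P, and the control plants of both lines in the same type of soil with a high P content. RNA came from 1.6 g of root tissue per sample, and the labels give neither the plants' age nor the number of plants in a sample. Each array held RNA of 6-4 and of Nipponbare from the same condition, so the line ratio was measured within an array. Under P deficiency 6-4 was in Cy5 on replicates 1 and 3 and in Cy3 on replicate 2, and in control roots the dyes were the other way round on each replicate. The series describes the replicates as biological. Of 21495 rice probes per array, 20528 were tested, and 18740 of these were well above background in all 6 channels of the P-deficient arrays.

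Rice roots short of P are known to raise phosphate transporters, to release acid phosphatases and ribonucleases that free phosphate from organic matter, and to exchange membrane phospholipids for galactolipids and sulfolipids. Root growth, the cell wall and the supply of organic acids and sugars change as well. Kasalath is known as the source of Pup1, a locus for P uptake from soils low in P, and whether 6-4 holds it was not examined here. Values below are log2 ratios of 6-4 over Nipponbare, so that 1 means a signal 2-fold higher in 6-4 and a negative value a lower signal in 6-4. A lower signal can come from less transcript, from fewer cells of the type that makes it, or from a Kasalath form that binds the probe less, and these cannot be told apart here. Probe descriptions are those of the array design and often name the closest sequence of another species, and several accessions can belong to 1 gene. A row of 3 values gives P-deficient replicates 1, 2 and 3, or control replicates 1, 2 and 3, in that order.

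Markers of the labelled tissue were looked up among the probes tested. They were 8 probes of the root-specific genes RCc2 and RCc3 and 45 of leaf and shoot genes, such as those of photosystems and chlorophyll binding proteins. All were well above background in at least 1 channel of the P-deficient arrays. Probes were tested only if well above background on all 3 arrays of a condition in either line. That result was thus all but fixed by the filter and does not identify the tissue. The median root marker lay at percentile 76.5, 76.4 and 75.6 of the probe levels of Nipponbare on the P-deficient replicates, and the median leaf marker at percentile 32.1, 29.4 and 28.7.

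The replicate 2 arrays of both conditions stood apart from the others in the Cy3 channel. The 162 negative control spots had a median Cy3 signal of 501 on P-deficient replicate 2 and 579 on control replicate 2, against 61.6 to 198 on the other 4 arrays, and the median rice probe was only 1.31 and 1.37 times as bright as these spots there. Over all probes, the line ratios of P-deficient replicates 1 and 3 correlated at r = 0.44, those of replicates 1 and 2 at 0.20 and those of replicates 2 and 3 at 0.05. P-deficient replicate 2 and control replicate 2, which hold the lines in opposite dyes, correlated at r = -0.62, with r = -0.83 in the dimmest and 0.02 in the brightest of 5 equal brightness classes of probes. These correlations run over probes, which are not independent replicates and share arrays and dyes. A dye effect particular to replicate 2 and a line difference particular to 1 condition cannot be told apart, since a model with a separate dye term for replicate 2 has 4 columns and a rank of 3. Limma called 886 probes higher and 949 lower in 6-4 under P deficiency, 4.32% and 4.62% of those tested, from 6 arrays with a term for each condition and 1 for the dye. Together these were 8.94% of the probes tested, with 18.7% called in the dimmest brightness class and 2.78% in the brightest. On replicates 1, 2 and 3 the median ratio of the probes called higher was 0.08, 0.85 and 0.07, and that of the probes called lower was -0.10, -0.79 and -0.07, so most calls rest on replicate 2. Of the called probes, 522 higher and 569 lower had 1 sign on all 3 arrays. The same test without P-deficient replicate 2 called 1 probe higher and 8 lower, without replicate 1 it called 0 and 9, and without replicate 3 it called 0 and 6.

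**Figure D1:**
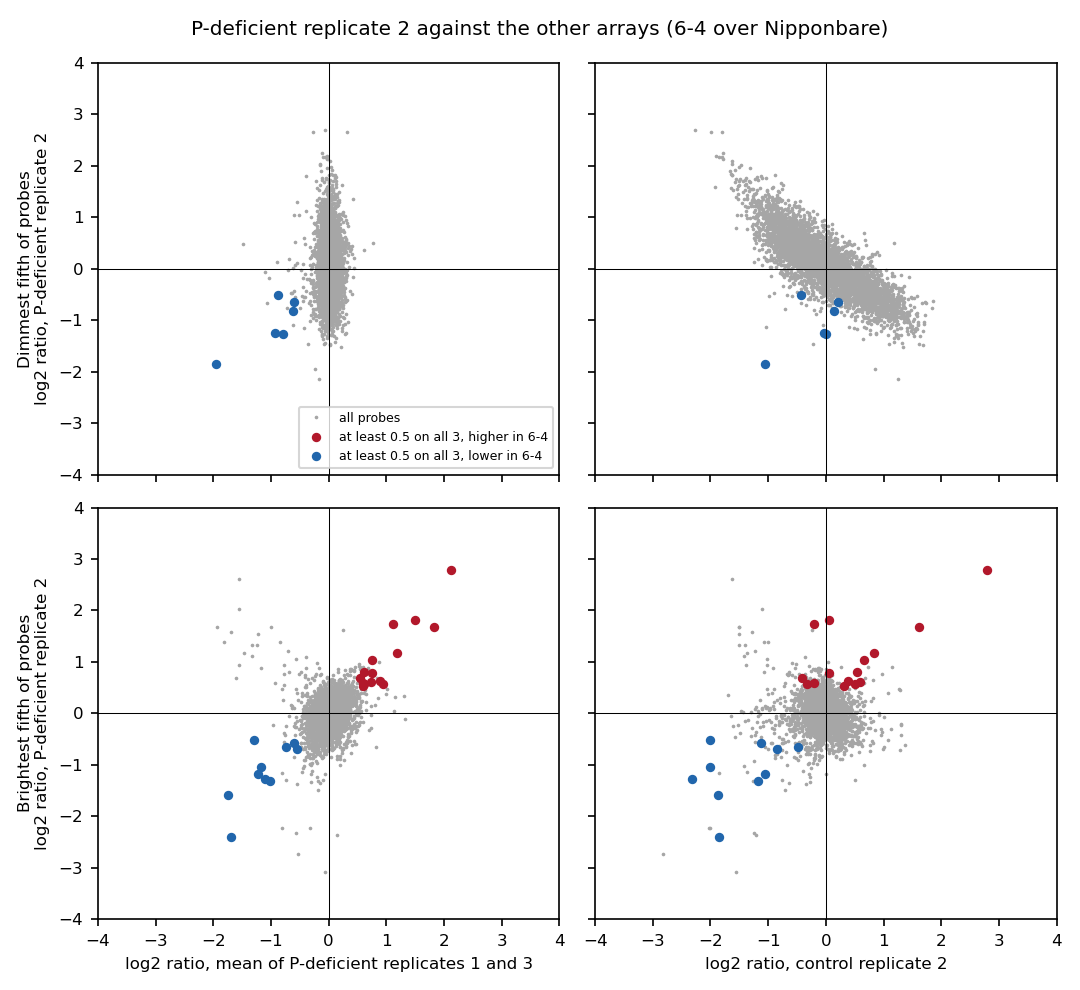
Log2 ratios of 6-4 over Nipponbare on P-deficient replicate 2 (vertical axes) against the mean of P-deficient replicates 1 and 3 (left) and against control replicate 2 (right), for the dimmest (top) and the brightest (bottom) of 5 brightness classes of probes. Grey points are all probes of a class and coloured points those at 0.5 or more with 1 sign on all 3 P-deficient arrays. In the dimmest class the points spread along the replicate 2 axis and mirror control replicate 2 (r = -0.83), while in the brightest class they do not (r = 0.02).

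The account below therefore leads with probes whose ratio had the same sign and a size of at least 0.5 on each of the 3 P-deficient arrays, a limit set after the values were seen. These were 26 probes higher and 46 lower in 6-4, 0.127% and 0.224% of those tested, and no test stands behind that count. Without the size limit, 3560 probes (17.3%) were higher and 3340 (16.3%) lower on all 3 arrays. Of the 26 higher probes 24 passed limma's test at an adjusted p of 0.05, and of the 46 lower ones 39 did. Without a dye term 0 of the 26 and 13 of the 46 passed, and in the 3 P-deficient arrays alone 1 and 9. At 2-fold or more on every array stood 3 higher and 18 lower probes, and at 4-fold or more 0 and 6. Nearest to the limit, the prefoldin AK067874 was inside at 0.88, 0.50 and 0.66 and the remorin AK060379 outside at 0.77, 0.79 and 0.498.

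**Figure D2:**
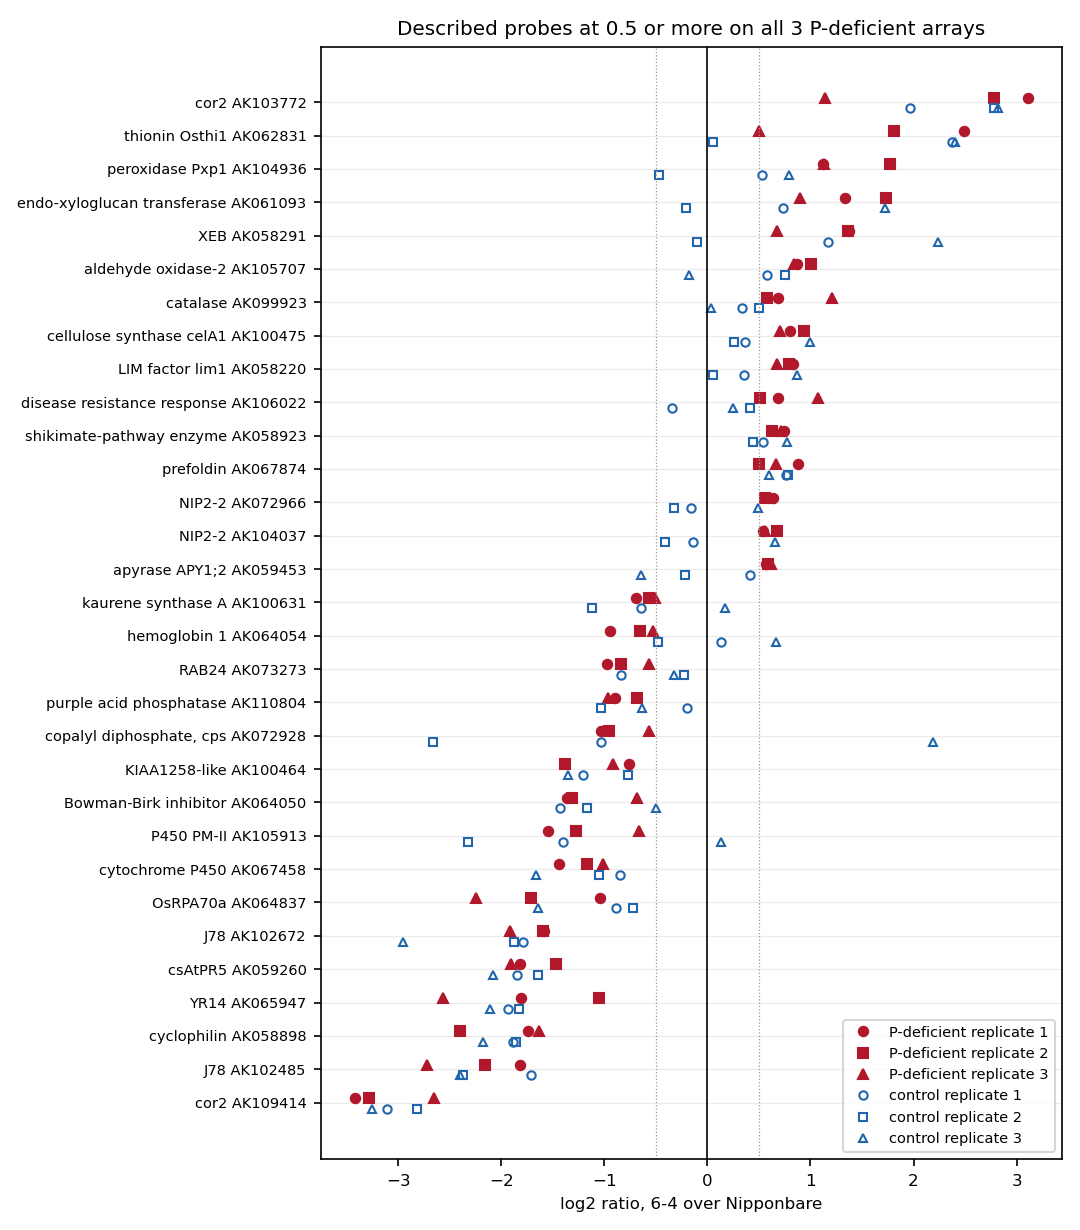
Log2 ratio of 6-4 over Nipponbare of the 31 described probes at 0.5 or more (dotted lines) with 1 sign on all 3 P-deficient arrays, 1 row per probe. Filled symbols are the 3 P-deficient arrays and hollow symbols the 3 control arrays, with the replicate shown by the shape. The lowest rows lie together in both conditions, while several of the higher probes, such as NIP2-2 and Pxp1, spread across 0 in control roots.

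A few probes of disease resistance genes and a cyclophilin gave several of the larger deficits in 6-4. A pair of probes described after the bean protein J78, an NBS-LRR receptor of the class that detects pathogens inside the cell, had ratios of -1.82, -2.16 and -2.72 (AK102485) and -1.59, -1.60 and -1.91 (AK102672) under P deficiency. The rice NBS-LRR probe YR14 (AK065947) had -1.81, -1.05 and -2.57. Each of the 3 probes, picked with earlier results known, lay below -1 on every P-deficient array. Their control values overlap these or lie lower, from -1.72 to -2.95. The probe csAtPR5 (AK059260) had -1.82, -1.47 and -1.91 under P deficiency and -1.85, -1.65 and -2.08 in control roots. A cyclophilin, an enzyme that helps proteins fold (AK058898), had -1.74, -2.40 and -1.63 under P deficiency, close to the control values of -1.89, -1.85 and -2.17. Fitted ratios were -2.20 (SE 0.20, limma adjusted p = 0.0111) for AK102485, -1.73 (SE 0.23, adjusted p = 0.019) for YR14, -1.73 (SE 0.12, adjusted p = 0.0046) for csAtPR5 and -1.998 (SE 0.11, adjusted p = 0.00203) for the cyclophilin. Of all 167 probes of NBS-LRR and disease resistance genes 17 were called higher and 10 lower, 10.2% and 5.99% against 4.32% and 4.62% of all probes, 3 were below -0.5 on all 3 arrays, 1 was above 0.5, and their median ratio was -0.01.

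A pair of probes with the name cor2, described after an NADPH-dependent oxidoreductase of opium poppy, went in opposite directions. AK109414 had -3.42, -3.28 and -2.65 under P deficiency, the lowest mean of the described probes at that limit. AK103772 had 3.11, 2.78 and 1.14, the highest. Both kept their sign on every control array, at -3.11, -2.81 and -3.26 for AK109414 and 1.96, 2.78 and 2.82 for AK103772. Fitted ratios were -3.17 (SE 0.14, limma adjusted p = 0.000993) and 2.37 (SE 0.38, adjusted p = 0.0232). The higher probe varied more between arrays than the lower one, and its lowest value, on P-deficient replicate 3, was less than that on the other P-deficient arrays by more than 1.6.

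Other described probes lower in 6-4 on all 3 arrays covered DNA maintenance, protease inhibition, oxidation and membrane traffic. OsRPA70a (AK064837), a subunit of the replication protein that binds single-stranded DNA, had -1.05, -1.71 and -2.24 (adjusted p = 0.0219 in limma). The Bowman-Birk trypsin inhibitor AK064050, of a family of plant protease inhibitors, had -1.36, -1.31 and -0.68 (adjusted p = 0.03). Cytochrome P450 AK067458, one of the large family of haem oxidases, had -1.44, -1.17 and -1.01 (adjusted p = 0.0208). Each of these 3 was also negative on every control array. The RAB24 probe AK073273, described after a small GTPase of membrane traffic, had -0.97, -0.84 and -0.57 (limma adjusted p = 0.0224), and its control values of -0.84, -0.23 and -0.32 overlapped. A probe described after the human protein KIAA1258 (AK100464) had -0.76, -1.38 and -0.91 (adjusted p = 0.00443), and it overlapped its control values of -1.21, -0.77 and -1.35. The monosaccharide transporter OsMST3 (AK099079), which carries simple sugars into cells, had a smaller but even deficit at -0.36, -0.38 and -0.30 (adjusted p = 0.0368).

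Probes without a descriptive name held several of the deepest and most even deficits. AK071141 had -2.94, -2.63 and -2.77, AK069404 -2.64, -2.42 and -2.27, AK107945 -2.15, -3.01 and -2.49, AK106867 -2.23, -2.53 and -2.31 and AK061361 -1.997, -1.70 and -1.91 under P deficiency. All 5 were below -1.4 on every control array too. AK069404 and AK107945 were not well above background in every P-deficient channel. For these 2 no count of settings passed is given. AK071141, AK106867 and AK061361 passed limma's test in 18, 21 and 21 of the 22 settings run. The median was 13 over the 72 probes past the limit and 10 over the other called probes. The probes were picked for deep and even ratios and the settings share the same arrays, so these counts are no separate support. A pair of probes with 1 description, At1g26440 of Arabidopsis, differed in size: AK069916 had -2.18, -2.20 and -2.65 and AK073310 -0.58, -0.69 and -0.52. AK069461, an unknown protein, was not well above background in 6-4 on any of the 3 arrays and was in Nipponbare on all 3, at least 2.93-fold lower in 6-4. Under P deficiency it passed the filter on dim probes only through Nipponbare, so no test is given. That bound sets the mean level in Nipponbare against, on each array, the higher of the probe's own level in 6-4 and the lowest level of any probe well above background there.

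Genes that build and loosen the cell wall were among the probes higher in 6-4. Xyloglucan endotransglycosylases cut and rejoin the xyloglucan chains that tie cellulose fibres together: the endo-xyloglucan transferase AK061093 had 1.33, 1.73 and 0.90 and the barley-like XEB AK058291 had 1.37, 1.37 and 0.68 under P deficiency. Another member, PM5 (AK060654), had 0.43, 0.30 and 0.56. These 3 probes were named for having 1 sign on all 3 P-deficient arrays or after their values were seen. Their shared sign is thus no result of its own. In control roots AK061093 had 0.73, -0.21 and 1.72 and AK058291 1.17, -0.11 and 2.23, negative on replicate 2. Limma's adjusted p was 0.0219, 0.0435 and 0.0333 for the fitted ratios of 1.49, 1.32 and 0.42 (SE 0.22, 0.29 and 0.08). Expansin Os-EXP-1 (AK069548), which loosens walls during growth, had 1.30, 0.997 and 0.44 and did not pass (adjusted p = 0.0678). Other expansins were called lower. Alpha expansin 26 (AK071328) had -0.24, -0.80 and -0.06 (limma adjusted p = 0.0232). Beta-expansin EXPB1 (AK072792) had -0.15, -0.93 and -0.03 (limma adjusted p = 0.0219). Both were lowest on replicate 2, and on control replicate 2 they were positive, at 1.02 and 0.85. Of all 61 probes of expansins and xyloglucan enzymes, 5 were called higher and 3 lower, 8.2% and 4.92% against 4.32% and 4.62% of all probes. On all 3 arrays 13 were positive and 8 negative, 21.3% and 13.1% against 17.3% and 16.3%. The median ratio of the list was 0.05, against -0.0003 for all probes.

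Cellulose synthases, which spin the fibres at the plasma membrane, were higher in 6-4 for some members. The probe celA1 (AK100475), described after cotton, had 0.80, 0.93 and 0.70 under P deficiency and 0.36, 0.26 and 0.99 in control roots. CesA-1 (AK100188), described after maize, had 0.47, 0.61 and 0.25 under P deficiency and -0.05, -0.31 and 0.47 in control roots. Fitted ratios were 0.86 (SE 0.13, limma adjusted p = 0.0221) and 0.51 (SE 0.12, adjusted p = 0.0477). Of 41 probes of cellulose and wall synthesis 3 were called higher and 1 lower, 7.32% and 2.44% against 4.32% and 4.62% of all probes, and 12 were positive and 3 negative on all 3 arrays, 29.3% and 7.32% against 17.3% and 16.3%. Their median ratio was 0.08, 0.11 and 0.05 on replicates 1, 2 and 3, while the median of all probes tested was 0.005, -0.01 and 0.007. The LIM factor lim1 (AK058220), described after a maize transcription factor, had 0.83, 0.79 and 0.67 (fitted 0.81, SE 0.13, adjusted p = 0.0226).

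Peroxidases, secreted enzymes that use hydrogen peroxide to cross-link wall phenolics among other roles, included a member well above Nipponbare in 6-4 under P deficiency. The anionic peroxidase Pxp1 (AK104936), described after poplar, had 1.12, 1.78 and 1.13 under P deficiency and 0.53, -0.47 and 0.79 in control roots. The conditions do not overlap in this probe, as in 16.4% of all probes tested. Its fitted ratio was 1.49 (SE 0.10, limma adjusted p = 0.00457), and it passed in 17 of 22 settings, more than any other described probe on the higher side at the limit. Peroxidase prx12 (AK106200) had 0.72, 0.90 and 0.48 (adjusted p = 0.0286). Across the 85 peroxidase probes 8 were called higher and 4 lower, 9.41% and 4.71% against 4.32% and 4.62% of all probes, with a median ratio of -0.01, against -0.0003 for all probes.

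Single probes of antioxidant and aromatic metabolism were higher in 6-4. A catalase, which breaks down hydrogen peroxide (AK099923), had 0.68, 0.58 and 1.21 (fitted 0.77, SE 0.12, limma adjusted p = 0.0224). Glutathione synthetase gsh2 (AK099555), the last step of glutathione synthesis, had 0.70, 0.46 and 0.55 under P deficiency and -0.07, 0.07 and -0.02 in control roots, where it lay close to 0 (fitted 0.55, adjusted p = 0.018). Of 122 probes of glutathione and antioxidant genes 7 were called higher and 8 lower, 5.74% and 6.56% against 4.32% and 4.62% of all probes. Aldehyde oxidase-2 (AK105707), of a family whose plant members make abscisic acid and other acids from aldehydes, had 0.87, 1.01 and 0.84 (adjusted p = 0.032). The shikimate-pathway enzyme AK058923, dehydroquinate dehydratase with shikimate oxidoreductase, which feeds aromatic amino acids and phenolics, had 0.74, 0.63 and 0.71 (adjusted p = 0.0168), with control values of 0.54, 0.44 and 0.77 that overlap.

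Probes of membrane transport went in both directions. A pair of probes of NIP2-2, an intrinsic protein of the NOD26 family which includes silicon carriers of rice, had 0.63, 0.56 and 0.60 (AK072966, adjusted p = 0.0454 by limma) and 0.54, 0.68 and 0.56 (AK104037, which did not pass, adjusted p = 0.0537) under P deficiency. In control roots the same probes had -0.16, -0.33 and 0.49 and -0.14, -0.41 and 0.66, positive on replicate 3 alone. An apyrase, an enzyme that splits phosphate from nucleotides outside or inside the cell (AK059453), had the evenly placed values 0.57, 0.58 and 0.61 but did not pass (adjusted p = 0.0897), and its control values were 0.42, -0.21 and -0.64. The vacuolar proton pyrophosphatase AK066933, which pumps protons with the energy of pyrophosphate, had 0.67, 0.70 and 0.20 (adjusted p = 0.0403). Of the 55 probes of proton pumps and ion channels 2 were called higher and 3 lower, 3.64% and 5.45% against 4.32% and 4.62% of all probes. On all 3 arrays 10 were positive and 10 negative, 18.2% each against 17.3% and 16.3%. Of 54 ABC transporter probes 3 were called higher and 4 lower, 5.56% and 7.41%. Of 13 aquaporin probes limma called 0, with 3 positive at an unadjusted p of 0.05, and 5 were positive and 0 negative on all 3 arrays, among them PIP2-2 (AK061491) at 0.32, 0.20 and 0.54 (adjusted p = 0.0606). Across the list the median ratio was 0.15, 0.12 and 0.16 on replicates 1, 2 and 3, which sits above the median of all probes on each array.

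Single probes of defence and dehydration genes were higher in 6-4, though their lists were not. The thionin Osthi1 (AK062831), a small antimicrobial protein, had 2.49, 1.81 and 0.50 under P deficiency, just inside the limit on replicate 3, and 2.38, 0.06 and 2.40 in control roots (limma adjusted p = 0.0484). A disease resistance response protein (AK106022) had 0.69, 0.51 and 1.07 (adjusted p = 0.0321) under P deficiency and -0.34, 0.41 and 0.25 in control roots. Wall-associated protein kinase AK105147, of receptors that bind wall pectin, had 1.60, 0.27 and 1.33, with its smallest value on replicate 2 (adjusted p = 0.0235). A pair of probes of the dehydration-responsive protein RD22, which abscisic acid induces in Arabidopsis, had 1.14, 0.34 and 1.46 (AK106070) and 0.72, 0.31 and 1.31 (AK105947), again smallest on replicate 2. Their adjusted p was 0.0254 and 0.029. The protease inhibitor AK058739, described after a maize inhibitor of subtilisin and chymotrypsin, had 0.59, 0.41 and 0.39 (adjusted p = 0.0313), and so differed in direction from the Bowman-Birk inhibitor. Of 111 probes of pathogenesis-related and defence genes 3 were called higher and 5 lower, 2.7% and 4.5% against 4.32% and 4.62% of all probes, with a median ratio of -0.06. Of 30 probes of abscisic acid and drought 3 were called higher and 3 lower, 10% each, with 3 positive and 6 negative on all 3 arrays and a median ratio of -0.08. The undescribed probe AK061197 had the highest minimum over the 3 arrays of the 26 higher probes, with 1.60, 1.68 and 2.06 (fitted 1.65, SE 0.22, adjusted p = 0.0188), with -0.08, 1.61 and 0.54 in control roots.

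Phosphate transporters of 6-4 were mostly at or below the level of Nipponbare under P deficiency. Of 14 probes, limma called 1 lower and 0 higher (3 and 1 at an unadjusted p of 0.05), 7.14% and 0% against 4.62% and 4.32% of all probes. On all 3 arrays 7 were negative and 1 positive, 50% and 7.14% against 16.3% and 17.3% of all probes, and none reached 0.5 on all 3. High affinity phosphate transporter 2 (AK108907) had -0.50, -1.33 and -0.12 under P deficiency and -0.82, -0.27 and -1.13 in control roots. Its fitted ratio was -0.80 (SE 0.11, limma adjusted p = 0.0211), and the size of the deficit differed widely between arrays. A second probe with that description, AK070341, had -0.08, -0.25 and -0.001 (adjusted p = 0.197). OsPT1 (AK063990) had -0.19, -0.57 and -0.07, the transporter AK109109 -0.39, -0.16 and -0.33 and the Pht1-2 probe AK101380 -0.32, -0.42 and 0.01, none of which passed (adjusted p = 0.155, 0.084 and 0.313). AK109109 differed from the others in that its values matched its control values of -0.34, -0.13 and -0.43 closely. The single positive member on all 3 arrays was a mitochondrial carrier (AK069397), which moves phosphate into mitochondria, at 0.03, 0.57 and 0.11 (adjusted p = 0.1). The list's median ratio was -0.12, -0.16 and -0.02 on P-deficient replicates and -0.13, -0.29 and -0.09 on control replicates. The only probe of phosphate sensing, PHO1 (AK100323), which loads phosphate into the xylem in Arabidopsis, had 0.13, -0.05 and 0.09 (adjusted p = 0.851).

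Enzymes that release phosphate were lower in 6-4 for some members. A purple acid phosphatase, a metal enzyme that frees phosphate from organic esters (AK110804), had -0.90, -0.69 and -0.96 under P deficiency and -0.20, -1.03 and -0.64 in control roots, with a fitted ratio of -0.78 (SE 0.11, limma adjusted p = 0.021). PAP22 (AK073222) had -0.29, -0.67 and -0.23 under P deficiency (adjusted p = 0.0224) and -0.74, -0.48 and -0.66 in control roots. An aleurone-type ribonuclease (AK060320), which degrades RNA, had -0.33, -0.58 and -0.19 under P deficiency (adjusted p = 0.0444) and -0.53, -0.54 and -0.87 in control roots. These 3 were negative on all 6 arrays. The acid phosphatase aps1 probe AK058604 was also called (adjusted p = 0.0236) at -0.18, -0.78 and -0.26, but its control value on replicate 2 was 0.94. Of 30 probes of acid phosphatases and ribonucleases 6 were called lower by limma and 0 higher (9 and 5 at an unadjusted p of 0.05), 20% and 0% against 4.62% and 4.32% of all probes, 5 of the 6 with 1 sign on all 3 arrays, while the median ratio of the list was -0.004. Among 30 probes of membrane lipid remodelling 4 phospholipase probes were called lower and 0 higher (5 and 2 at an unadjusted p of 0.05), 13.3% and 0%, and 1 of the 4 had 1 sign on all 3 P-deficient arrays.

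In carbon metabolism single members were called. A probe described after nodule-enhanced malate dehydrogenase of alfalfa, an enzyme that makes the organic acid malate, had -1.13, -0.36 and -1.43 (AK071297, limma adjusted p = 0.033). Another probe with that description went the other way at 0.26, 0.89 and 0.37 (AK068064, adjusted p = 0.0154), and it lay in the dimmest brightness class. Enolase of glycolysis (AK073662) had 0.45, 0.48 and 0.27 (adjusted p = 0.0246) and 0.34, 0.21 and 0.35 in control roots. Across 70 probes of organic acids and glycolysis 3 were called higher and 2 lower, 4.29% and 2.86% against 4.32% and 4.62% of all probes. On all 3 arrays 16 were positive and 6 negative, 22.9% and 8.57% against 17.3% and 16.3%.

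Diterpenoid synthesis, which makes both gibberellin hormones and antimicrobial phytoalexins in rice, was lower in 6-4 on all 3 P-deficient arrays for several probes, but these did not pass limma's test. Copalyl diphosphate synthase, described as cps (AK072928), had -1.03, -0.95 and -0.57 (adjusted p = 0.6). Kaurene synthase A (AK100631) had -0.70, -0.57 and -0.51 (adjusted p = 0.126), kaurene synthase AK108710 -0.60, -0.27 and -0.54 (adjusted p = 0.0775) and the diterpene cyclase OsDTC1 (AK068310) -0.67, -1.23 and -0.41 (adjusted p = 0.323). Their control values varied more: AK072928 had -1.04, -2.66 and 2.19 there. The cytochrome P450 PM-II probe AK105913 was also lower on all 3 arrays, with -1.55, -1.27 and -0.66 under P deficiency and -1.40, -2.32 and 0.13 in control roots (adjusted p = 0.132). Of 24 diterpenoid and gibberellin probes 8 were negative and 4 positive on all 3 arrays, 33.3% and 16.7% against 16.3% and 17.3% of all probes. Limma called 2 lower and 0 higher (6 and 3 at an unadjusted p of 0.05), 8.33% and 0% against 4.62% and 4.32%, and the median ratio was -0.09. Across 127 cytochrome P450 probes 41 were negative and 15 positive on all 3 arrays, 32.3% and 11.8% against 16.3% and 17.3% of all probes. Of them 11 were called lower and 6 higher, 8.66% and 4.72% against 4.62% and 4.32%, and the median ratio was -0.09, -0.23 and 0.0006 on replicates 1, 2 and 3.

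Lists of low oxygen, hormone and stress genes differed in how many probes were called. Of 26 probes of cytokinin and response regulators 4 were called lower and 0 higher, 15.4% against 4.62% of all probes called lower. Of the 4, 3 had 1 sign on all 3 arrays. They were CRK1 (AK109954) at -0.05, -0.65 and -0.14, ZmRR9 (AK101165) at -0.06, -0.71 and -0.14 and a cytokinin oxidase (AK109624) at -0.09, -1.06 and -0.56. Each was lowest on replicate 2, and on control replicate 2 they were positive, at 0.22, 0.61 and 0.77. Of 80 auxin probes 5 were called higher and 3 lower, 6.25% and 3.75%. Hemoglobin 1 (AK064054), a plant globin that rises when oxygen is short and scavenges nitric oxide, had -0.95, -0.65 and -0.53 under P deficiency and 0.13, -0.48 and 0.67 in control roots (limma adjusted p = 0.0634). Alcohol dehydrogenase 2 (AK102799), of fermentation, had -0.27, -0.66 and -0.15 under P deficiency (adjusted p = 0.0224) and -0.87, -0.32 and -0.89 in control roots. Of 34 low oxygen probes 2 were called higher and 1 lower, 5.88% and 2.94%. The CBF factor AK109275, of the family that binds drought and cold response elements, had -0.73, -1.19 and -0.13 (adjusted p = 0.039), and a barley-like protein responsive to abscisic acid (AK063578) had -0.76, -0.82 and -0.41 (adjusted p = 0.0224). Of 38 ethylene probes 16 were negative and 3 positive on all 3 arrays, 42.1% and 7.89% against 16.3% and 17.3% of all probes, with 1 called lower. Heat shock protein 80 (AK102426), a chaperone, had -0.39, -0.15 and -0.57 (adjusted p = 0.0461), with 1 P-deficient channel saturated, so that its ratios are uncertain. Among 70 heat shock probes 3 were called lower and 1 higher, 4.29% and 1.43%. Potassium transporter HAK4 (AK068820) was called lower at -0.59, -1.46 and -0.13 (adjusted p = 0.0456), but it was not well above background in every P-deficient channel.

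Genes of protein synthesis and cell division had more members higher than lower in 6-4 on all 3 arrays, though few passed the test. Of 137 probes of cytosolic ribosomal proteins 41 were positive and 6 negative on all 3 arrays, 29.9% and 4.38% against 17.3% and 16.3% of all probes. Of them 2 were called higher and 3 lower, 1.46% and 2.19% against 4.32% and 4.62%. Their median ratio was 0.14, 0.28 and 0.001 on P-deficient replicates 1, 2 and 3, so replicate 3 did not show it. Of 77 probes of histones and DNA replication 20 were positive and 5 negative, 26% and 6.49%, with 3 called higher and 2 lower, 3.9% and 2.6%. RPA2 (AK103235), a partner subunit of RPA70 in the complex that binds single-stranded DNA, had 0.66, 0.37 and 0.42 (limma adjusted p = 0.0347), opposite to OsRPA70a. A cyclin probe (AK111939), of the proteins that drive the cell cycle, had 0.56, 0.74 and 0.24 (adjusted p = 0.0455). The 35 markers of dividing cells had a median ratio of 0.11, 0.08 and -0.01 and a summed level in 6-4 of 0.08, 0.04 and -0.14 relative to Nipponbare on the log2 scale, with 1 probe called higher.

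Some root-specific probes were higher in 6-4. RCc2 (AK063090) had 0.44, 1.48 and 0.50 under P deficiency (fitted 0.96, SE 0.07, limma adjusted p = 0.0046) and 0.67, -0.19 and 0.66 in control roots. The RCc3 probes AK062381 and AK109149 had 0.85, 0.40 and 0.39 (adjusted p = 0.117) and 0.41, 0.45 and 0.28 (adjusted p = 0.0513, 1 P-deficient channel saturated) under P deficiency. Of the 8 root markers 2 were called higher, 1 of them with mixed signs over the arrays, and 0 lower, 25% and 0% against 4.32% and 4.62% of all probes. On all 3 arrays 3 were positive and 0 negative, 37.5% and 0% against 17.3% and 16.3%. The summed level of the 8 markers in 6-4 relative to Nipponbare was 0.37, 0.48 and 0.20 on the log2 scale, on P-deficient replicates 1, 2 and 3. The 45 leaf and shoot markers had summed log2 ratios of -0.05, -0.26 and 0.12, with 1 probe called higher and 1 lower, 2.22% each. The lower one was a putative light-harvesting protein (AK067780) at -0.26, -0.65 and -0.40 (adjusted p = 0.0236). Some root markers, like some wall gene and peroxidase probes described above, were higher in 6-4. The median ratio was -0.01 over the 85 peroxidase probes and 0.05 over the 61 of expansins and xyloglucan enzymes. The part of the root markers in those differences was not tested.

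**Figure D3:**
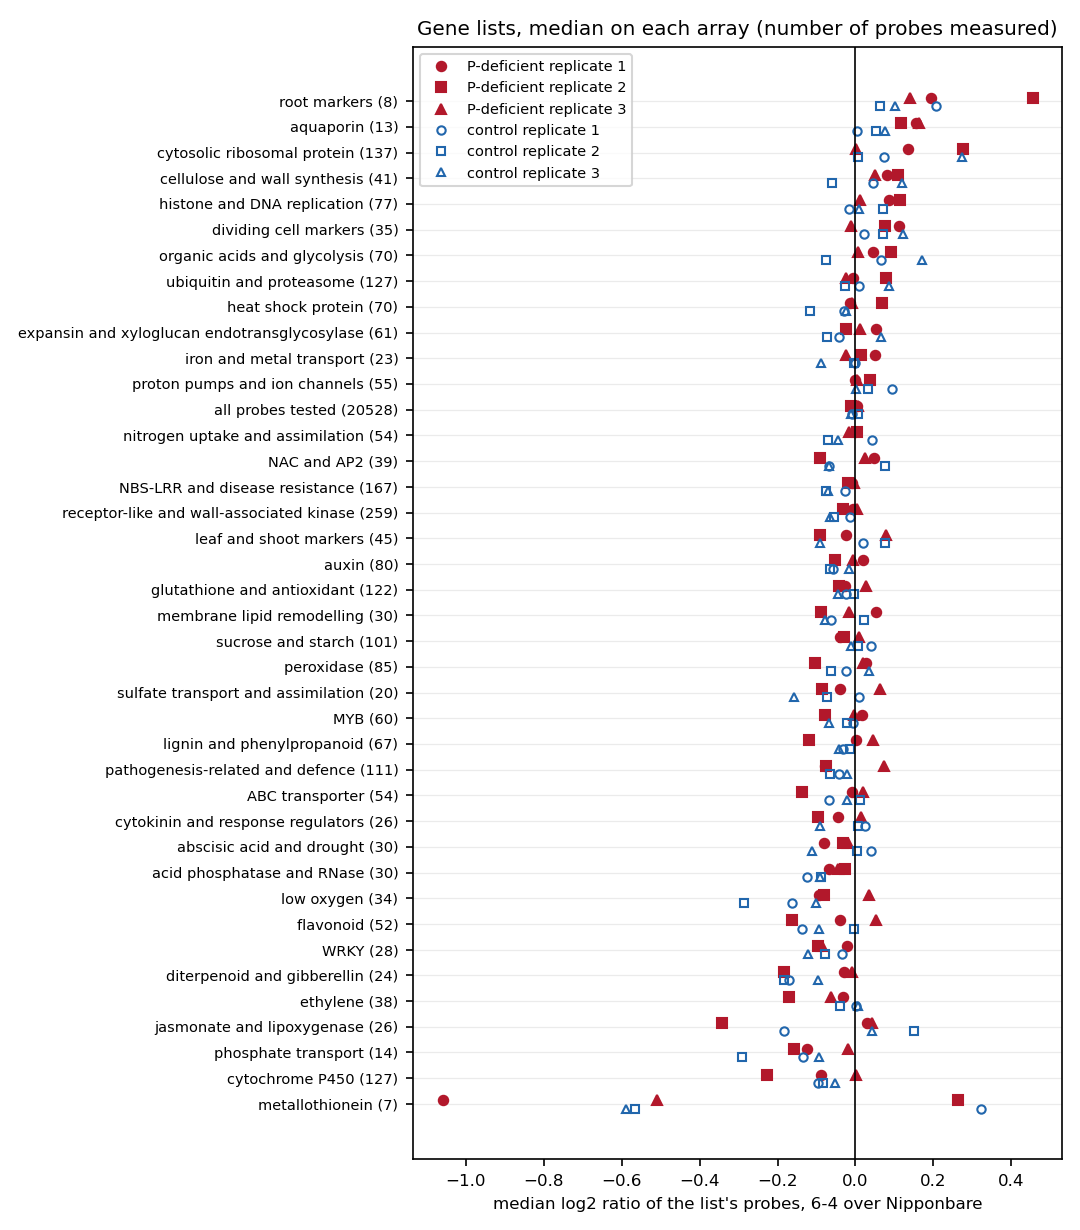
Median log2 ratio of 6-4 over Nipponbare of each gene list with at least 5 probes and of all probes tested, on each array (filled, P-deficient; hollow, control; the shape gives the replicate), with the number of probes measured in brackets. Most lists lie within 0.2 of 0 on every array; the 7 metallothionein probes spread furthest, from -1.06 to 0.26 under P deficiency.

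Metallothioneins, small proteins that bind metals, showed no settled direction. Their median ratio was -1.06, 0.26 and -0.51 on P-deficient replicates 1, 2 and 3 and 0.32, -0.57 and -0.59 on control replicates, with 0 of 7 probes called by limma and 0 past an unadjusted p of 0.05. The probe AK105219 had -1.51, 0.93 and -1.60 under P deficiency and 1.58, -1.38 and 0.69 in control roots, and AK062653 had -1.46, 1.17 and -1.47 under P deficiency and 1.504, -1.37 and 0.88 in control roots. On all 6 arrays both signs followed the dye, with the line in Cy5 lower. Both were saturated in 3 of the 6 P-deficient channels.

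Most of the consistent deficits of 6-4 were also present with P supplied. Of the 46 probes lower under P deficiency, 25 were also below -0.5 on all 3 control arrays, which is 54.3% of the P-deficient and 20.3% of the 123 control probes past that limit. Of the 26 higher probes 7 were also above 0.5 on all 3 control arrays, 26.9% of these and 35% of the 20 control probes. At any size, 37 of the 46 and 16 of the 26 kept their sign on every control array. The median ratio of the 46 was -1.002, -1.26 and -1.04 on P-deficient replicates and -1.05, -1.09 and -1.35 on control replicates. For the 26 it was 0.86, 0.81 and 0.71 on P-deficient replicates and 0.54, 0.43 and 0.79 on control replicates.

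The difference of the line ratio between the conditions was tested in the same fit, as P deficiency minus control. Limma called 4034 probes, 19.7% of those tested, with 1927 positive and 2107 negative. Of these, 1871 and 2090 had opposite signs on P-deficient and control replicate 2, with median differences of 1.21 and -1.29 on replicate 2 and 0.10 and -0.07 over replicates 1 and 3. Without control replicate 2 limma called 0 in either direction, with 2093 positive and 2007 negative at an unadjusted p of 0.05, and from replicates 1 and 3 alone 0 were positive and 5 negative. The size of a called difference is therefore to be read beside the values on each array. Among the 72 probes past the limit under P deficiency, 6 had a called difference, 1 of them higher in 6-4, the peroxidase Pxp1 (AK104936), at 1.35 (SE 0.15, adjusted p = 0.0054). The conditions lay furthest apart on replicate 2, where Pxp1 had opposite signs, at 1.78 under P deficiency and -0.47 in control roots. On replicates 1 and 3 it had 1.12 and 1.13 under P deficiency against 0.53 and 0.79 in control roots. An unknown protein, AK103811, was lower at -0.60, -0.65 and -0.59 under P deficiency and spread around 0 at 0.07, 0.20 and -0.22 in control roots (difference -0.68, SE 0.12, adjusted p = 0.0143). Another, AK064195, had -0.56, -1.52 and -0.57 under P deficiency against 0.14, 0.71 and 0.28 in control roots, the only one of the 72 with the opposite sign on all control arrays (difference -1.502, adjusted p = 0.00514). Glutathione synthetase (AK099555), below the limit on replicate 2, differed by 0.53 (SE 0.10, adjusted p = 0.016). RD22 (AK106070) differed by 0.76 (SE 0.21, adjusted p = 0.0487), and its control values of 0.05, 0.43 and -0.65 overlapped those under P deficiency. The other RD22 probe, AK105947, had a difference of -0.14 (limma adjusted p = 0.648) and control values of 0.46, 1.03 and 0.69.

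A further set of genes was lower in 6-4 with P supplied, with ratios nearer to 0 under P deficiency. They were picked from the lists after their values were seen. MGDG synthase, which makes the galactolipid that replaces phospholipids (AK064148), had 0.05, -0.13 and 0.01 under P deficiency and -1.22, -0.80 and -0.70 in control roots. A glycerophosphodiester phosphodiesterase, which takes phospholipid remnants apart (AK071836), had 0.20, -0.21 and -0.28 under P deficiency and -0.94, -0.67 and -0.63 in control roots. A purple acid phosphatase (AK071643) had 0.13, -0.20 and 0.15 under P deficiency and -0.93, -0.67 and -0.64 in control roots. In all 3 the conditions did not overlap, which held for 3373 (16.4%) of all probes tested. The P-deficient values of the 3 lay within 0.3 of 0. The differences were 0.83 (SE 0.15, adjusted p = 0.0147 in limma), 0.60 (SE 0.17, adjusted p = 0.0475) and 0.70 (SE 0.12, adjusted p = 0.0136).

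The phosphate transporter Pht1-2 (AK101170), with 2 of its 6 P-deficient channels saturated, so that its ratios and their difference are uncertain, had -0.13, -0.18 and -0.02 under P deficiency and -0.59, -0.77 and -0.98 in control roots (difference 0.65, SE 0.13, limma adjusted p = 0.0197). Alanine aminotransferase (AK107237), which links amino acid and pyruvate metabolism, had 0.44, 0.14 and -0.11 under P deficiency and -1.203, -1.10 and -1.46 in control roots (difference 1.37, adjusted p = 0.00681). A rice ribonuclease (AK058502) had -0.24, 0.10 and -0.22 under P deficiency and -0.53, -1.10 and -0.49 in control roots (difference 0.74, adjusted p = 0.00823). The kaurene synthase A probe AK100333 had 0.72, 0.22 and -0.26 under P deficiency and -1.12, -0.72 and -1.41 in control roots, and kaurene oxidase (AK066285) had 0.06, 0.83 and -0.48 under P deficiency and -0.44, -1.09 and -0.92 in control roots. Their differences of 1.22 and 1.198 passed with adjusted p = 0.0287 and 0.0165, and in both the P-deficient values spread widely. High affinity phosphate transporter 11 (AK062362), with 1 P-deficient channel saturated, at -1.02, -0.16 and -0.06 under P deficiency and -0.78, -1.40 and -1.99 in control roots, did not pass (adjusted p = 0.108). Beyond metabolism, the probe of the tomato resistance gene Cf-9 (AK065680) had -0.07, 1.11 and 0.05 under P deficiency and -0.94, -1.76 and -2.99 in control roots (difference 2.41, SE 0.56, adjusted p = 0.0295). Germin-like protein 2 (AK059812), a wall protein, had 0.13, 1.08 and -0.33 under P deficiency and -1.18, -0.99 and -0.999 in control roots (difference 1.53, adjusted p = 0.0159). It was not well above background in every P-deficient channel, and on replicate 2 it was no nearer to 0 under P deficiency than in control roots.

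**Figure D4:**
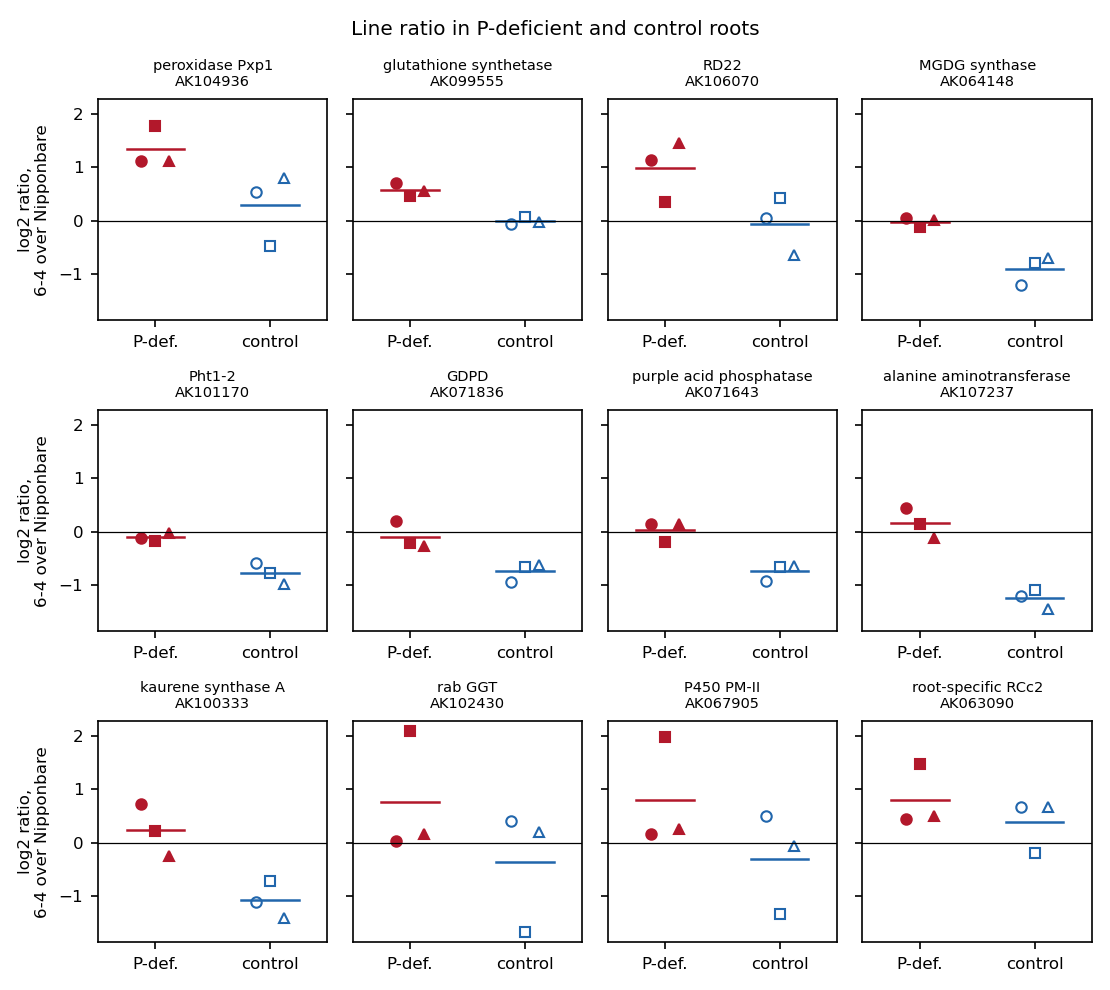
Log2 ratio of 6-4 over Nipponbare in P-deficient roots (left in each panel, filled) and control roots (right, hollow) for 12 probes with a called difference between the conditions; the shape gives the replicate (circle 1, square 2, triangle 3) and the line the mean of 3 arrays. In MGDG synthase, GDPD (the glycerophosphodiester phosphodiesterase) and AK071643 the P-deficient arrays lie near 0 and the control arrays below, as in Pht1-2, of which 2 P-deficient channels were saturated, while in rab GGT, P450 PM-II and RCc2 replicate 2 stands far from the other replicates in 1 or both conditions.

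Several of the largest called ratios rest on replicate 2 and are given for that reason. A rab geranylgeranyl transferase probe (AK102430) was called at 1.10 (SE 0.08, limma adjusted p = 0.0046) with 0.03, 2.10 and 0.16 under P deficiency and 0.41, -1.69 and 0.20 in control roots. The second PM-II probe (AK067905) had 0.16, 1.99 and 0.25 (adjusted p = 0.0151), the replication origin protein OsORC1 (AK103068) 0.04, 2.15 and 0.10 (adjusted p = 0.0236) and an endopolygalacturonase, a pectin-cutting enzyme (AK103106), 0.16, 1.99 and 0.18 (adjusted p = 0.00443). The same holds for UMP synthase of pyrimidine synthesis (AK069565) at 0.15, 1.70 and 0.09, an ABC transporter (AK072452) at 0.07, 1.64 and 0.41 and the undescribed AK059047 at 0.35, 2.65 and 0.31. AK072452 and AK059047 were not well above background in every P-deficient channel. On the lower side were the receptor-like protein EILP (AK066147) at -0.03, -1.46 and -0.12 and a polyprotein (AK066302) at -0.33, -1.95 and -0.14. Each of these 9 had the opposite sign on control replicate 2, and 646 of the probes called higher and 662 of those called lower were at 0.5 or more on P-deficient replicate 2 and under 0.25 in size on both other arrays.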

How the data were processed

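The authors quantified Cy3 and Cy5 spots as mean signal intensity with Agilent Feature Extraction, version 7.1 for replicates 1 and 2 and 8.1 for replicate 3 of both conditions, per the file headers. For P-deficient replicate 2 the submitters' processing notes name 8.1 instead. The deposited log10 ratios, used as an alternative, match the deposited value table within 0.005. In R 4.3.3, limma 3.58.1 corrected background (normexp, offset 50) and normalized by loess within arrays. Control spots had no weight in loess, and 569 spots marked as outliers were left out. A probe was kept if it exceeded background on the 3 arrays of a condition in either line. Lines were compared by lmFit and eBayes on 6 arrays, with 3 residual degrees of freedom, Benjamini-Hochberg adjustment over 20528 probes and a threshold of 0.05. SE is limma's; precision is limited by how few arrays there are. The fit was tested on simulated data with 1 dye effect per probe, common to all 6 arrays. That test cannot show how the fit handles a dye effect particular to replicate 2.

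The comparison, its 40 gene lists (words in descriptions) and the named probes were chosen with earlier results of these data known. Named were up to 15 described probes per direction by ratio, with 1 sign on all 3 arrays, 3 undescribed, 5 described ones by called difference without overlap, 3 per list by p, and 12 picked probes. Other probes were named after their values were seen. As 0 accessions matched the reference gene table, positions and sequences are not given.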

Additional observations from a re-analysis of the deposited data

Results flagged for a closer look

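Limma called a difference of the line ratio between P deficiency and control for 4034 probes, 19.7% of those tested. Only 36 of them, all named in this report, were flagged. Each is given here as the difference, P deficiency minus control, on the log2 scale. They were AK103811 (-0.68), AK107945 (-0.57), AK099555 (0.53), AK071836 (0.60), AK101170 (0.65), AK071643 (0.70), AK058502 (0.74), AK106070 (0.76), AK064148 (0.83), AK104936 (1.35) and AK107237 (1.37). Further ones were AK100333 (1.22), AK066285 (1.198), AK065680 (2.41), AK059812 (1.53), AK064195 (-1.502), AK067780 (-0.58), AK068064 (0.69), AK063090 (0.74) and AK058604 (-0.94). In RCc2 (AK063090), AK058604 and AK068064 the difference lay almost wholly on replicate 2.

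The probes given above for resting on replicate 2 were AK066147 (-1.51), AK066302 (-1.40), AK072452 (1.08), AK103106 (1.22), AK069565 (1.54), AK103068 (1.62), AK067905 (1.66), AK102430 (1.79) and AK059047 (1.86). Among described probes, the 5 largest called differences in each direction without overlap added the ECA1 protein (AK062599, -1.33), peroxidase Prx3 (AK061040, -1.29), phytoene synthase of carotenoid synthesis (AK108154, -1.24), SKIP2 (AK071138, -1.22) and a Kelch-like protein (AK066661, -1.18). On the positive side stood a selenium-binding protein (AK111304, 1.56) and the reductase FRO2 (AK067009, 1.41). AK062599, AK108154 and AK067009 were not well above background in every P-deficient channel. On P-deficient replicate 2 and control replicate 2 these 7 probes had opposite signs, as in AK108154, with 0.03, -1.09 and 0.07 under P deficiency and 0.13, 1.32 and 0.12 in control roots.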

How the results depend on the processing

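Counts of probes higher and lower in 6-4 under P deficiency (886 and 949) moved with nearly every choice. Leaving out 1 array in turn gave 0 to 2315 higher and 6 to 2162 lower, the highest without control replicate 3, with 1373 and 1176 without control replicate 1 and 241 and 229 without control replicate 2. They were 1 and 9 from the 3 P-deficient arrays alone, 2808 and 2654 with a dye term there, 0 and 13 without the dye term, 570 and 642 with the software version as a batch, and 0 and 1 without background correction. They were 22 and 18 with median centring, 55 and 130 with the deposited log ratios, 457 and 539 among probes bright on the P-deficient arrays and 2260 and 1941 in the single-channel fit. Settings added after the data were seen gave 2 and 18 from replicates 1 and 3 alone, 446 and 464 among probes bright in all channels and 2844 and 2692 with array weights. Among the calls, 48.3% were higher, against 29.7% with the deposited ratios.

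Same-numbered arrays of both conditions deviated against each other (r = -0.60, -0.75 and -0.37). They hold the lines in opposite dyes, so these values cannot show whether the replicate numbers pair the line ratios. With the replicate block 353 probes were higher and 350 lower, and for the difference between conditions 1145 and 1379. That difference (1927 positive, 2107 negative) ranged over 0 to 2973 and 0 to 3176 when 1 array was left out, with 0 in both directions without control replicate 2, without the dye term and without background correction. It was 1632 and 526 with median centring (75.6% positive, against 47.8%), 601 and 1371 with the deposited ratios (30.5%), 1151 and 1192 among probes bright in all channels, 3114 and 3281 with array weights, and 0 and 5 from replicates 1 and 3 alone.

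The 26 higher and 46 lower probes at 0.5 became 184 and 192 at 0.25, 3 and 18 at 1, 37 to 114 and 74 to 176 on 2 of the 3 arrays, 16 and 33 without background correction, and 61 and 80 with the deposited ratios. Of 110 probes followed singly, 1 called ratio changed sign, AK108154, at 0.0512 from replicates 1 and 3 alone; of the values recomputed for these probes, 680 lost a call, 86 gained one and 1495 stayed on their side of the threshold. The cause of these changes was not tested. Signal over local background was lowest on P-deficient replicate 1 in Cy3, at 3.25.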
